A study of Saccharomyces cerevisiae with 45 samples.

Results

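The interval between 120 and 240 min after the transfer of purified spores into rich medium was examined in the DMSO cultures, as the 3 libraries of DMSO 240 min against the 3 libraries of DMSO 120 min. These are 6 of the 45 libraries of the series, and were taken from the sample titles and treatment labels without use of any measured value. Spores of Saccharomyces cerevisiae strain SK1 (a diploid MATa/MATα ho::LYS2 ura3 leu2 trp1 his3 lys2 strain that had been sporulated) were purified and placed in YPD, a glucose medium with yeast extract and peptone, at 30 °C with DMSO as the solvent control. The labels call this treatment nutrient medium. The paper describes aliquots taken over time from a DMSO and a rapamycin culture. Within the DMSO treatment the replicate letters A, B and C were therefore read as 3 cultures. The 120 and 240 min libraries of a letter are then aliquots of 1 culture. The main test did not use this pairing, and a fit with the letter as a block is given at the end. The rapamycin cultures, used below for comparison, had the same spores and medium plus 2000 nM rapamycin, an inhibitor of the TORC1 kinase. Poly-A RNA was sequenced strand-specifically, and reads were counted per gene.

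A spore is a dormant haploid cell in a thick wall. On return to nutrients it germinates, makes ribosomes and proteins, grows out of the wall as a haploid cell of mating type a or alpha, and passes Start, the step in G1 at which the transcription factors SBF and MBF switch on the G1 cyclins and the genes for DNA synthesis. Spores of both mating types lie side by side in such a culture, and haploid cells signal to the opposite type with peptide pheromones that stop the cycle in G1 and switch on the genes for cell fusion. The 26S proteasome, whose genes share the activator Rpn4, degrades ubiquitin-marked proteins, and the heat shock factor Hsf1 controls most of the cytosolic chaperones.

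Total counts were between 9827306 and 14488017 per library. Values are given as CPM, the count of a gene scaled to a common library size, here with TMM factors over the 6 libraries. Of 5616 genes tested, 1294 (23.0%) changed, which means by at least 2-fold with a Benjamini-Hochberg adjusted p below 0.05 in the quasi-likelihood test of edgeR. At 240 min 803 of them (14.3% of genes tested) were higher and 491 (8.74%) were lower, and the words rose and fell are used below only for these. The median log2 fold change over all genes tested was 0.02. At least 4-fold changes comprised 195 rises and 113 falls, and at least 16-fold changes 16 rises and 13 falls. The 3 libraries of 120 min and the 3 of 240 min did not overlap in CPM for 1287 of the genes called, and for 75.2% of all genes tested. When all 21 DMSO libraries were scaled and fitted together, 1371 genes were called and 51.7% of them were higher, against 62.1% in the 6-library fit, and the median of all genes moved to -0.10. Of the genes that rose, 24 were over 1 CPM in no 120 min library, and of those that fell 27 were over it in no 240 min library, so they passed the filter on low counts only through the group in which they are high. No pair of replicates agreed within sampling noise. Each value is relative to the other RNAs of its library, and in such bulk RNA fewer cells of a kind cannot be told apart from less RNA per cell.

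The labels were checked against marker genes. Summed over 9 genes of late sporulation and dormant spores (DIT1, DIT2, SPS4, SPS100, SPR3, SPR28, CDA1, CDA2 and SMK1), the level was 96.8 to 160 CPM at 120 min and 38.4 to 41.6 CPM at 240 min. On a scale common to all 45 libraries the same sum was 10295 to 13862 CPM in purified spores and 49.2 to 52.4 CPM at 240 min. The 6 markers of dividing cells (CLN2, CLB2, CLB5, RNR1, HTA1 and CDC20) summed to 130 to 144 CPM at 120 min and to 315 to 456 CPM at 240 min, and 4 of them rose. On the 45-library scale this sum was 287 to 346 CPM in purified spores. It was 172 to 196 CPM at 120 min and 404 to 573 CPM at 240 min. Spores thus stood above the 120 min libraries, so this sum alone does not separate dividing cells from spores. Markers of both mating types were present, with 7 a-specific genes at 1423 to 1904 CPM and 4 alpha-specific genes at 1013 to 1136 CPM at 120 min. No marker of any class was at 0 in all 6 libraries.

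The 12 largest rises and 12 largest falls among genes with at least 10 CPM and libraries that do not overlap, both conditions of the choice, were led by a pheromone gene and by a cell surface gene. MF(ALPHA)2, 1 of the 2 genes for the alpha-factor pheromone, was at 1.58, 1.37 and 4.75 CPM in the 120 min libraries A, B and C and at 403, 406 and 646 CPM at 240 min. This was a log2 rise of 7.50 ± 0.32 (SE, adjusted p = 2.17e-09), or 8.33 without 120 min library C. ANS1, which encodes a putative cell surface protein, was at 3604, 4772 and 4042 CPM at 120 min and at 55.4, 39.7 and 52.5 CPM at 240 min, a log2 fold change of -6.40 ± 0.18 (adjusted p = 1.39e-10). The remaining rises held the G1 cyclin CLN2, the cell wall gene TOS6, the repressor YOX1, the fusion genes PRM2 and FIG1, the alpha-agglutinin gene SAG1, the methionine genes MET6 and MHT1, the chaperone gene SSA2, the lipid enzyme gene AYR1 and IRC24, a putative reductase. Among the falls were the phosphate genes PHO84, PHO89 and SPL2, the copper transporter CTR3, the aquaporin AQY1, the glycerol-3-phosphatase GPP2, the serine synthesis gene SER3, the spore wall gene LDS2, the sodium pump ENA1, and ICS2 and ICY1 of unclear function. Of the 24 genes, ENA1 shares 85.1% of its read-length windows with other places in the reference genome and SSA2 shares 45.8%, so their counts may be divided among copies. SER3 overlaps the noncoding gene SRG1 on its own strand.

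**Figure D1:**
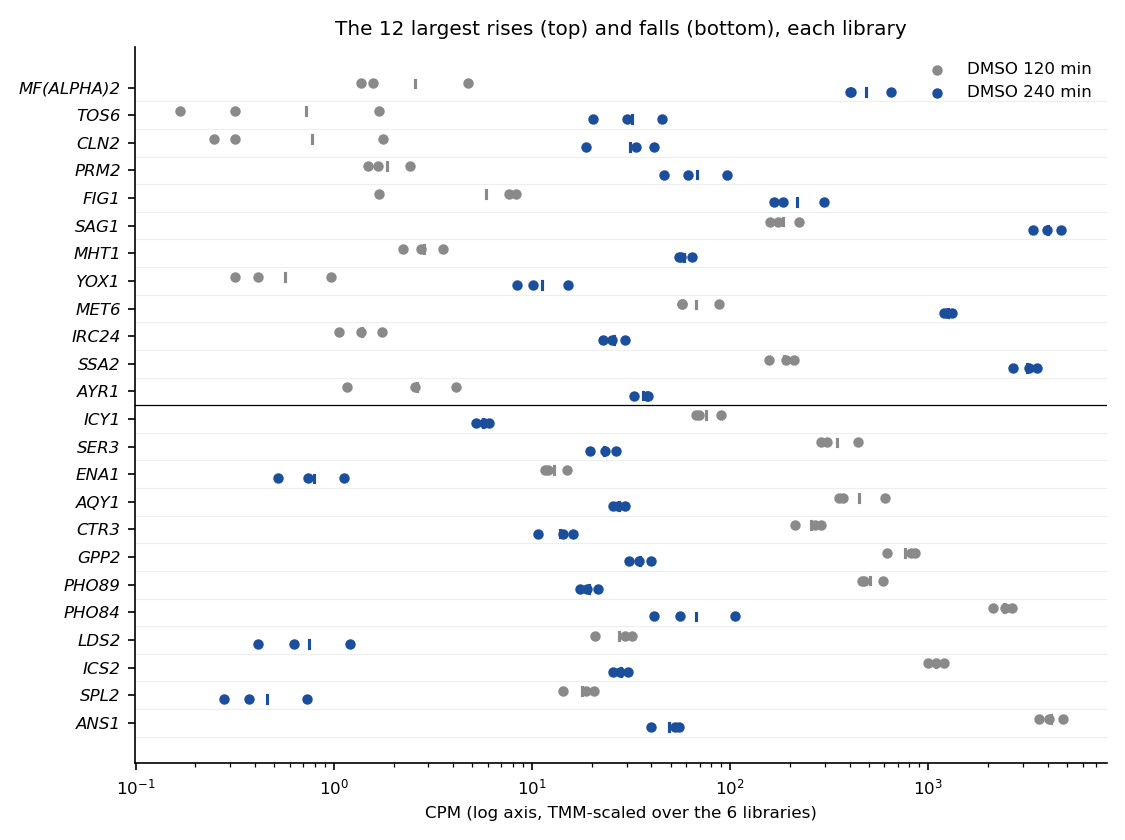
Level of the 12 genes with the largest rises and the 12 with the largest falls, in CPM on a log axis. Each point is 1 library (grey for DMSO 120 min, blue for DMSO 240 min) and each bar the mean of 3. Groups that do not overlap were a condition of the choice, and the distance is widest for MF(ALPHA)2 and ANS1.

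Proteasome genes rose together. Of 33 genes tested (32 subunit genes and RPN4), 32 rose, 0 fell and the median log2 fold change was 1.77, with a range of 1.08 to 3.53 among those that rose. Their summed level was 1922 to 1994 CPM at 120 min and 6082 to 6492 CPM at 240 min. PRE3, a catalytic subunit of the 20S core, was at 9.72, 10.0 and 11.6 CPM at 120 min and at 124, 128 and 111 CPM at 240 min. PRE1 and PRE2, also of the core, rose by 2.53 ± 0.09 and 2.69 ± 0.11 on the log2 scale. RPN10, a ubiquitin receptor of the regulatory particle chosen for naming after its values were seen, changed least among the subunits, from 60.7, 67.9 and 60.5 CPM to 138, 142 and 120 CPM. The gene of the activator itself, RPN4 (named likewise), was at 126, 129 and 129 CPM at 120 min and at 103, 98.6 and 107 CPM at 240 min, a log2 fold change of -0.32 ± 0.07 (adjusted p = 0.00116).

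Of the 33 genes, 81.8% hold the proteasome-associated control element PACE (GGTGGCAAA on either strand), the sequence bound by Rpn4, in the 500 bases before the start codon. The share was 1.71% of 5484 tested genes with such a window, 4.95% of the genes that rose and 1.48% of those that fell. The element was added to the motifs examined after the values were seen. Windows of 80 bases are shown for the 4 core subunits with the largest rises because the element is common to them, read from the RefSeq R64 genome of the reference strain in the direction of the gene, with the element in capitals. They lie at chrX:434983-435062 (PRE3, plus strand), chrXVI:732158-732237 (PRE2, plus strand), chrV:177655-177734 (PRE1, plus strand) and chrV:349486-349565 (PUP3, minus strand), all more than 100 bases before the start codon.
PRE3: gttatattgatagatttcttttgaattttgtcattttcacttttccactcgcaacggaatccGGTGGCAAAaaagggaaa
PRE2: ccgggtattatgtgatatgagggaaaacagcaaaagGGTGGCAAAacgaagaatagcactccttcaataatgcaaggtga
PRE1: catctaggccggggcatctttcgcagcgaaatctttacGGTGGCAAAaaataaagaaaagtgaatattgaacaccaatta
PUP3: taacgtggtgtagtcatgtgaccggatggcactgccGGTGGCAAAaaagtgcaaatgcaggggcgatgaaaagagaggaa

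No further change was called for the proteasome genes after 240 min. In DMSO 360 min against DMSO 240 min 0 of the 33 changed by edgeR (2 at an unadjusted p under 0.05, and 0 by DESeq2), with a median log2 fold change of 0.05. Before the interval, in DMSO 120 min against DMSO 60 min, 1 rose (6.44% of all genes tested did) and 2 fell (11.8% did). In that earlier comparison 26 of the 33 were lower at an unadjusted p under 0.05, and the median log2 fold change was -0.43. On the 45-library scale the sum was 10684 CPM in purified spores, 2637 ± 40.2 CPM (SD, n = 3) at 120 min and 7891 ± 372 CPM at 240 min, so the level at 240 min was below that of the spores. With rapamycin 0 of the 33 changed between 120 and 240 min by edgeR or DESeq2, although 10 had an unadjusted p under 0.05, 9 of them lower, and their sum was 4740 ± 238 CPM and then 4209 ± 198 CPM. The difference between the treatments in the change over the interval was called for 31 of the 33 genes (32.8% of all genes tested for it), all in the direction of the larger rise with DMSO.

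Most of the chaperone genes that changed were higher at 240 min. Of 27 heat shock and chaperone genes tested 14 rose and 3 fell, with a median log2 fold change of 1.05. SSA2, a cytosolic Hsp70, was at 156, 190 and 211 CPM at 120 min and at 2680, 3231 and 3538 CPM at 240 min. AHA1, an activator of the Hsp90 ATPase, rose from 22.2, 23.0 and 25.4 CPM to 265, 305 and 326 CPM (log2 fold change 3.66 ± 0.10), and STI1, which bridges Hsp70 and Hsp90, rose by 2.85 ± 0.12 on the log2 scale. The Hsp90 genes HSP82 and HSC82 and the disaggregase HSP104, which were named after their values were seen, rose by 2.50 ± 0.14, 2.16 ± 0.13 and 2.71 ± 0.13 on that scale. HSP60 and HSP10, the mitochondrial chaperonin, also rose, by 2.37 and 1.78. Some members did not rise. SSB1, the ribosome-associated Hsp70, of which 31.7% of read-length windows occur elsewhere, had 4167, 4755 and 4318 CPM and then 3744, 4018 and 4255 CPM (log2 fold change -0.14 ± 0.11, adjusted p = 0.25). HSP12, a membrane stress protein, and the Hsp70 gene SSA3 fell by 1.18 and 1.05 on the log2 scale, both past the fold threshold only with 120 min library A, without which the changes were -0.71 and -0.89 and 1 member of the list fell. Over the same interval with rapamycin 1 of the 27 genes rose and 1 fell (4.37% of all genes tested fell).

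Heat shock elements (written here as GAANNTTC or TTCNNGAA, the facing and diverging arrangements of the GAA unit, added after the values were seen) were found before 81.5% of the 27 genes. They are common, since 35.4% of all genes tested hold 1 as well. Windows of the genes with the largest rises are shown because each carries several units, at chrXII:97656-97735 (SSA2, minus strand), chrIV:892509-892588 (AHA1, plus strand) and chrXV:380790-380869 (STI1, plus strand), with matches in capitals.
SSA2: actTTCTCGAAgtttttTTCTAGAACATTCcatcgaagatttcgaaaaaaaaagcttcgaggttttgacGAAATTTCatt
AHA1: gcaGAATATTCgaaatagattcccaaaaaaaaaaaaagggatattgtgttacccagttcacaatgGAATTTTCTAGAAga
STI1: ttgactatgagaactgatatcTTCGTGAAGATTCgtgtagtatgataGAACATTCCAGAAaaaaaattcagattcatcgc

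Glycolysis and ethanol fermentation took a larger share of the RNA at 240 min. The 24 genes of the list summed to 22975 to 28469 CPM at 120 min and to 92864 to 104092 CPM at 240 min, and 12 rose while GPM2 alone fell (0 to 2 members fell when 1 library was left out). PDC1, the main pyruvate decarboxylase, was at 1782, 2498 and 2993 CPM at 120 min and at 22480, 24175 and 25480 CPM at 240 min (log2 fold change 3.31 ± 0.18). Phosphoglycerate kinase (PGK1) rose by 3.18 ± 0.13 on the log2 scale. The glyceraldehyde-3-phosphate dehydrogenase TDH3, of which 8.12% of read-length windows occur elsewhere, rose by 2.68 ± 0.12. Among the other enzymes of the lower pathway ENO2, GPM1 and TDH2 rose by 2.14, 2.27 and 2.37, and of the upper pathway PGI1 rose by 1.05 while PFK1, PFK2 and FBA1 were at log2 fold changes of 0.67, 0.87 and 0.90. With rapamycin 0 of the 24 rose by edgeR or DESeq2 (8 were higher at an unadjusted p under 0.05) and 2 fell. TPS1 and PGM1, of trehalose and glycogen synthesis, rose by 1.82 ± 0.19 and 3.27 ± 0.13 on the log2 scale, and the trehalase NTH2 fell by 2.43 ± 0.14. In all, 5 of the 18 genes of that list rose and 3 fell.

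Of 26 genes of gluconeogenesis, the glyoxylate cycle and the carnitine shuttle 0 rose and 11 fell (median log2 fold change -0.79). The fall was not particular to this interval. From 60 to 120 min 20 of 27 had fallen (median -1.66), against 11.8% of all genes tested. With rapamycin 16 of 27 fell between 120 and 240 min (median -1.15), against 4.37% of all genes tested. In the DMSO interval 1 library mattered. Without DMSO 120 min library A 7 fell in place of 11. The summed level of the list was 1125 to 1272 CPM at 120 min and 1211 to 1345 CPM at 240 min, and these ranges overlap. The transcription factor ADR1, an activator of genes for ethanol and fatty acid use, was at 80.5, 65.4 and 78.3 CPM and then at 13.8, 12.9 and 14.8 CPM. The carnitine acetyltransferase YAT1 and the succinate-fumarate carrier SFC1 fell by 2.60 ± 0.24 and 2.78 ± 0.46 on the log2 scale, the latter to 2 to 11 reads a library (-3.48 without 240 min library B). ACO1, the mitochondrial aconitase, rose from 82.6, 51.4 and 80.2 CPM to 283, 317 and 378 CPM, and the isocitrate dehydrogenase gene IDH1 and the fumarase gene FUM1 each rose by 1.63 on the log2 scale. In all 6 of 15 genes of the tricarboxylic acid cycle rose and 1 fell, and their summed level was 872 to 962 CPM at 120 min and 1690 to 1928 CPM at 240 min. Of 39 nuclear genes of the respiratory chain and ATP synthase 0 rose and 2 fell, the minor cytochrome c isoform CYC7 (35.1, 37.4 and 41.0 CPM, then 4.27, 3.77 and 3.84 CPM) and the subunit COX5B. The hexokinase HXK1 rose by 2.05 ± 0.25, whereas the hexose transporter HXT5 fell by 2.86 ± 0.13 on the log2 scale. Another transporter gene, HXT2, fell from 1888, 1998 and 2072 CPM to 823, 954 and 1037 CPM, with a log2 fold change of -1.08 that was -0.99 without 240 min library A.

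Sulfate assimilation and methionine genes were compared with the interval before. Between 60 and 120 min 24 of 29 had fallen (11.8% of all genes tested fell in that comparison) with a median log2 fold change of -4.15, and between 120 and 240 min 15 rose and 1 fell, with a median of 1.07. The summed level on the 45-library scale was 42074 ± 4152 CPM at 60 min, 8068 ± 1210 CPM at 120 min and 12560 ± 558 CPM at 240 min, so the level at 240 min stayed below that at 60 min. The 120 min libraries belong to both comparisons, so the values of a gene in the pair are not independent. MET6, methionine synthase, was at 57.3, 56.9 and 88.3 CPM at 120 min and at 1313, 1203 and 1247 CPM at 240 min. MHT1 and MMP1, which use and import S-methylmethionine, rose from 2.24, 2.75 and 3.54 CPM and from 6.98, 8.25 and 9.50 CPM by 4.35 ± 0.15 and 3.58 ± 0.13 on the log2 scale. The sulfate permease SUL1 was the member that fell, from 39.7, 69.1 and 85.8 CPM to 13.7, 13.8 and 15.1 CPM, and MET17, the sulfhydrylase, rose by 2.50 ± 0.19 (both named after their values were seen). With rapamycin 0 of the 29 rose by edgeR or DESeq2 (2 were higher at an unadjusted p under 0.05) and 6 fell (4.37% of all genes tested fell). The difference between treatments was called for 20 genes, all with the higher change in DMSO. Of all genes tested for it 32.8% were called, and 16.5% in that direction. The related one-carbon genes SHM2 and GCV2 rose by 2.12 ± 0.12 and 1.90 ± 0.13, within a list of 21 purine and one-carbon genes of which 7 rose and 1 fell (IMD3, of guanine nucleotide synthesis, with -1.84 ± 0.12).

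Of 22 genes of phosphate uptake and phosphatases 9 fell and 1 rose, with a median log2 fold change of -0.48. PHO84, the high-affinity phosphate transporter, was at 2130, 2656 and 2437 CPM at 120 min and at 41.0, 55.5 and 106 CPM at 240 min (log2 fold change -5.16 ± 0.29). PHO89, the sodium-dependent transporter, fell from 473, 464 and 587 CPM to 19.0, 17.5 and 21.5 CPM. SPL2, which limits low-affinity phosphate uptake, fell from 18.6, 20.6 and 14.3 CPM to 0.37, 0.28 and 0.73 CPM, which is 4 to 7 reads a library. In this comparison SPL2 passed the filter only through the 120 min libraries. The kinase inhibitor PHO81 and the polyphosphate polymerase subunit VTC3 fell by 1.85 ± 0.11 and 2.52 ± 0.16 on the log2 scale, and PHO3, a constitutive acid phosphatase, rose by 3.08 ± 0.15 (these 3 named after their values were seen). Between 60 and 120 min 13 of the 22 had risen, against 6.44% of all genes tested. That comparison shares the 120 min libraries, so the values of a gene in the pair are not independent. PHO84 with rapamycin stood, on the 45-library scale, at 61.4, 43.3 and 128 CPM at 120 min and at 449, 454 and 486 CPM at 240 min, against 2826, 3584 and 3321 CPM and then 51.6, 71.1 and 134 CPM in the DMSO cultures. The groups did not overlap within either treatment, and the changes were of opposite sign.

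The sequence CACGTG (an E-box, bound by Cbf1 with Met4 at sulfur genes and by Pho4 at phosphate genes) was held by 72.4% of the 29 sulfur genes and 63.6% of the 22 phosphate genes, compared with 6.24% of all genes tested, 7.61% of those that rose and 6.14% of those that fell. The same letters thus stood before a group of which 15 members rose and before a group of which 9 fell. Windows of both groups are shown side by side for that reason, from chrV:342588-342667 (MET6, minus strand), chrXII:732205-732284 (MET17, plus strand), chrXIII:26183-26262 (PHO84, minus strand) and chrII:798803-798882 (PHO89, minus strand), with CACGTG in capitals.
MET6: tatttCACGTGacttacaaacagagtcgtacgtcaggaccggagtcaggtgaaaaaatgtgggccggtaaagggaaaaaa
MET17: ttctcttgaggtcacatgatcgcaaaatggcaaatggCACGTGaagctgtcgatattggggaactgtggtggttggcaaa
PHO84: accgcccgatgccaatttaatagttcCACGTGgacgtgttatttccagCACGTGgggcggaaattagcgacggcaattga
PHO89: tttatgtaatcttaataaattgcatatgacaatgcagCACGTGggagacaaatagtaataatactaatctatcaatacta

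Ribosome biogenesis genes were lower without exception, mostly by under 2-fold. All 103 genes of the list had lower CPM at 240 min with an adjusted p under 0.05 and libraries that did not overlap, while a lower level at that p without a minimum fold was found for 1975 of all genes tested. The median log2 fold change was -0.88 (range -1.35 to -0.30), and 27 fell by at least 2-fold, or 43 when the 21 DMSO libraries were fitted together and 7 when the test was made against a 2-fold change. RPF1, of large subunit assembly, was at 298, 320 and 305 CPM and then at 118, 133 and 111 CPM. The RNA helicase genes DBP2 and HAS1 fell by 1.33 ± 0.10 and 1.30 ± 0.10 on the log2 scale. All 13 genes of RNA polymerase I and its factors were lower at that p as well, with a median of -0.60, although of these RPC19 alone fell by over 2-fold (log2 fold change -1.06, and -0.97 without 240 min library A). The cytosolic ribosomal protein genes did not go with them. Of 56 genes of the small subunit 0 changed by edgeR or DESeq2, with 7 at an unadjusted p under 0.05 (median 0.07), and 2 of 81 of the large subunit did (median 0.08). These were RPL9B and RPL18B, at 424, 493 and 442 CPM and at 424, 539 and 444 CPM at 120 min. At 240 min RPL9B was at 110, 104 and 210 CPM and RPL18B at 165, 166 and 244 CPM, with library C the highest for each. The ribosomal protein genes summed to 80556 to 88463 CPM (small subunit) and 105088 to 117071 CPM (large subunit) at 120 min. At 240 min the sums of 82781 to 94280 CPM and 109541 to 123639 CPM overlapped with these.

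With rapamycin, of the ribosome biogenesis genes 11 rose and 0 fell, with a median log2 fold change of 0.81, and 51 of the 56 small subunit and 71 of the 81 large subunit genes rose. Of all genes tested 5.74% rose with rapamycin. These calls depend on the scaling, since by library size alone 223 genes rose with rapamycin in place of 326, and 422 fell in place of 248. On the 45-library scale the biogenesis genes summed to 84540 ± 4449 CPM at 120 min and 43049 ± 2153 CPM at 240 min with DMSO, and to 25618 ± 1348 CPM and then 42039 ± 2521 CPM with rapamycin. At 120 min the DMSO sums were the higher in every library, and at 240 min the sums of the treatments were close. The difference in the change was called for 102 of 103 biogenesis genes (32.8% of all genes tested for it). PAC (GATGAG) and RRPE (AAAATTT), 2 elements common before such genes, were held by 93.2% and 95.1% of the 103 genes against 28.2% and 35.2% of all genes tested. Among all genes that fell in the DMSO cultures the shares were 34.1% and 36.0%.

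**Figure D2:**
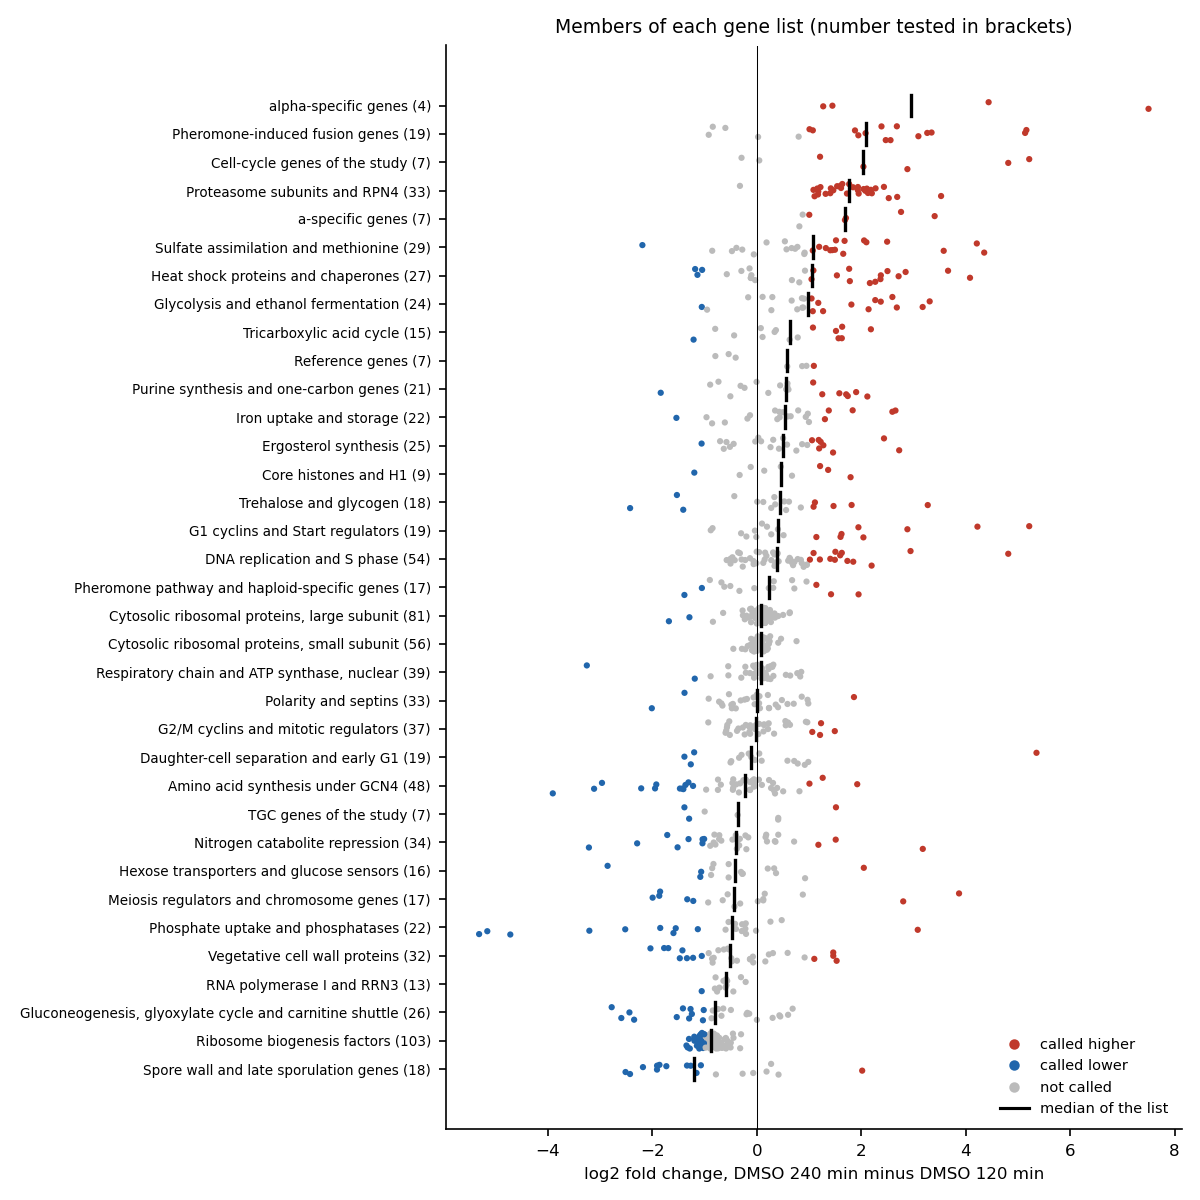
Log2 fold change of every tested member of each gene list with at least 4 tested members, between DMSO 120 min and DMSO 240 min. Points are genes (red rose, blue fell, grey not called), black bars are list medians, and lists are ordered by median. The alpha-specific genes (median 2.94) stand at the top, and the ribosome biogenesis genes (median -0.88) and spore wall genes (median -1.21) at the bottom.

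Genes of mating were among the highest rises. Of the 19 tested genes that pheromone induces for cell fusion 14 rose and 0 fell, with a median log2 fold change of 2.08, and their summed level went from 1842 to 2546 CPM at 120 min to 7779 to 13561 CPM at 240 min. PRM2, for nuclear fusion, was at 1.66, 1.48 and 2.42 CPM and then at 46.3, 61.4 and 96.3 CPM. FIG1, a membrane protein of mating cells, was at 8.31, 1.69 and 7.65 CPM and then at 167, 185 and 297 CPM. PRM3, also of nuclear fusion, rose by 3.35 ± 0.16, and AGA1, the anchor of a-agglutinin, named after its values were seen, from 1014, 698 and 1117 CPM to 4286, 5009 and 7398 CPM. Library C was the highest at 240 min for these 4 genes, and the groups did not overlap for any of them.

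All 4 alpha-specific genes rose, SAG1 from 158, 174 and 222 CPM to 3378, 3986 and 4676 CPM, the alpha-factor gene MF(ALPHA)1 by 1.27 ± 0.10 and the a-factor receptor gene STE3 by 1.45 ± 0.11. At 120 min MF(ALPHA)1 had been at 724, 759 and 769 CPM, while MF(ALPHA)2 was below 5 CPM in each library. Of 7 a-specific genes 5 rose and 0 fell, ASG7, an inhibitor of signalling after fusion, from 6.90, 4.23 and 8.13 CPM to 47.8, 63.3 and 97.8 CPM and the a-factor gene MFA1 from 122, 80.02 and 122 CPM to 577, 992 and 632 CPM. The protease gene BAR1 and the agglutinin gene AGA2 rose by 1.71 ± 0.20 and 1.69 ± 0.16, and MFA2 by 1.00 ± 0.14, at the threshold of 2-fold, so that 7 of the alternative settings do not call it, among them the leaving out of 120 min library B or C or of 240 min library B (0.87 to 0.95). STE2 and STE6, the alpha-factor receptor and the a-factor exporter, were at log2 fold changes of 0.81 and 0.88. Of 17 genes of the pheromone pathway 3 rose, namely the desensitising SST2 (198, 150 and 182 CPM, then 648, 650 and 747 CPM), the repressor DIG2 and the cycle inhibitor FAR1, a share close to the 14.3% of all genes tested that did. The scaffold STE5 and RME1, a repressor of meiosis in haploid cells, fell by 1.05 and 1.39 on the log2 scale. The pathway genes GPA1, STE4, STE18 and FUS3, which are expressed in haploid cells, were between -0.33 and 0.72.

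From 60 to 120 min 7 of 7 a-specific genes had risen with DMSO, with a median log2 fold change of 4.71 against 1.69 from 120 to 240 min. So had 3 of 4 alpha-specific genes (median 2.76) and 9 of 19 fusion genes (median 0.87). Over all genes tested 6.44% rose in that earlier interval, which shares the 120 min libraries. By 360 min most of these genes had fallen again with DMSO. From 240 to 360 min 10 of 19 fusion genes, 6 of 7 a-specific genes and 4 of 4 alpha-specific genes fell (1.45% of all genes tested fell). With rapamycin 13 of 20 fusion genes, 7 of 7 a-specific and 4 of 4 alpha-specific genes rose between 120 and 240 min (5.74% of all genes tested rose). On the 45-library scale the alpha-specific sum was 1441 ± 102 CPM at 120 min, 8446 ± 1290 CPM at 240 min and 3444 ± 539 CPM at 360 min with DMSO and 215 ± 29.4, 1807 ± 486 and 12319 ± 1077 CPM with rapamycin. For FIG1 a difference in the change between treatments was not called (-0.10 on the log2 scale, adjusted p = 0.929), with rapamycin libraries at 0.48, 0 and 0.68 CPM at 120 min and at 10.2, 7.50 and 22.3 CPM at 240 min. For MF(ALPHA)2 it was 4.16 on the log2 scale (adjusted p = 0.00113), higher with DMSO.

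The pheromone response element TGAAACA was held by 61.9% of 21 fusion genes and by all 7 a-specific genes, against 11.7% of all genes tested, 14.7% of those that rose and 8.47% of those that fell. The windows lie at chrIX:285100-285179 (PRM2, minus strand), chrIII:71593-71672 (FUS1, plus strand), chrXVI:183357-183436 (PRM3, minus strand) and chrX:102158-102237 (ASG7, minus strand), and show the element on either strand in capitals. FUS1, of cell fusion, was named after its values were seen and rose from 85.7, 42.1 and 81.6 CPM to 233, 283 and 376 CPM.
PRM2: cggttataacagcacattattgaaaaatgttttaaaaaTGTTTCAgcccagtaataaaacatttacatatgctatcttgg
FUS1: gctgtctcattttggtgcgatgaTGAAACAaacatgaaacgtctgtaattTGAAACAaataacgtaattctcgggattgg
PRM3: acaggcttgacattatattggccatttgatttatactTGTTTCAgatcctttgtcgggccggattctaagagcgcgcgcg
ASG7: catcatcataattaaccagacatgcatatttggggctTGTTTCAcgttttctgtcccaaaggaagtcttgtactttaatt

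**Figure D3:**
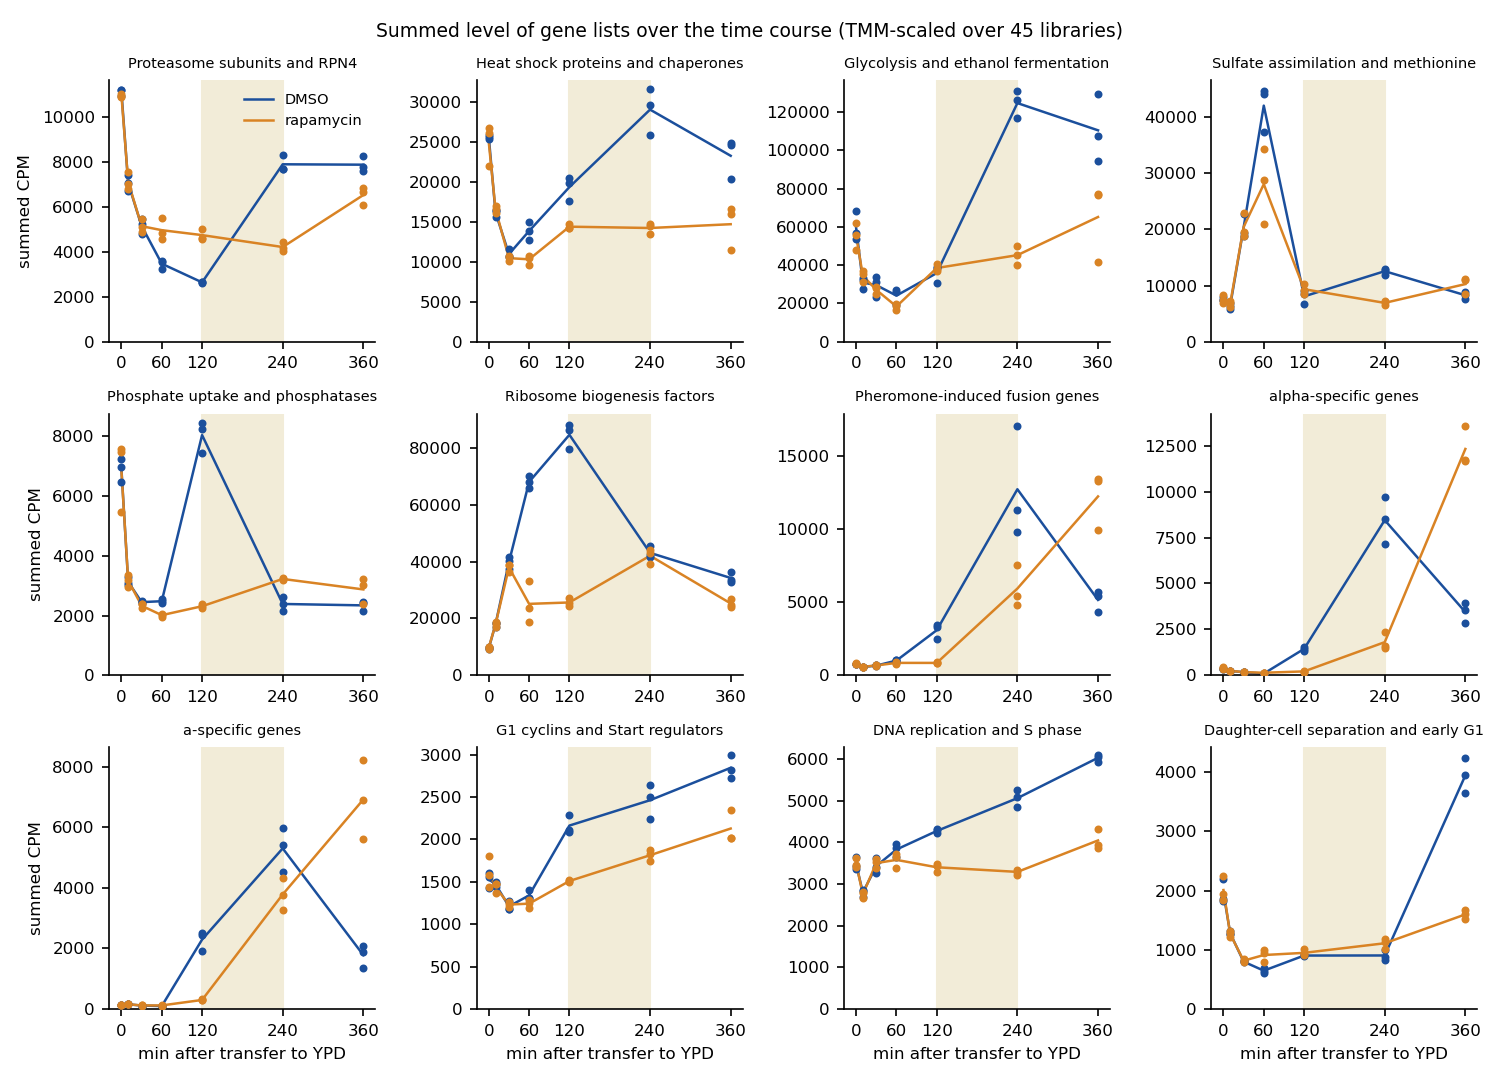
Summed CPM of 12 gene lists from 0 to 360 min after transfer, on the scale common to 45 libraries. Points are single libraries, lines join the means of 3, blue is DMSO, orange is rapamycin, and the shaded band marks 120 to 240 min. Within the band the proteasome, chaperone, glycolysis and mating lists go up in DMSO, and the phosphate and ribosome biogenesis lists go down.

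Of 19 genes of Start 8 rose and 0 fell. CLN2, a G1 cyclin, was at 0.25, 0.32 and 1.77 CPM (3, 3 and 22 reads) at 120 min and at 41.2, 18.7 and 33.5 CPM at 240 min, a log2 fold change of 5.22 ± 0.45 (adjusted p = 5.22e-07). CLN1, the paired cyclin, was at 2.99, 2.96 and 2.74 CPM and then at 16.8, 8.25 and 11.01 CPM. TOS6, a cell wall gene under SBF, is not on the Start list but on that of daughter-cell separation. It was at 0.17, 0.32 and 1.69 CPM (2, 3 and 21 reads) and then at 45.1, 20.3 and 30.1 CPM. Library A was the highest at 240 min and library B the lowest for each of the 3, and 120 min library C stood above A and B for CLN2 and TOS6. With 1 library left out the log2 fold change was 4.75 (without 120 min library A) to 6.73 (without 120 min library C) for CLN2 and 4.84 to 7.01, without the same libraries, for TOS6. The repressor YOX1, which was over 1 CPM only at 240 min, rose by 4.22 ± 0.36 on the log2 scale (4.86 without 120 min library C), the Pho85 cyclin PCL1 by 2.88 ± 0.36 and SWI4, the DNA-binding subunit of SBF named after its values were seen, from 28.3, 23.3 and 28.7 CPM to 107, 93.6 and 110 CPM. CLN3, the upstream G1 cyclin, was at 241, 242 and 282 CPM and then at 287, 268 and 321 CPM (log2 fold change 0.19 ± 0.10, adjusted p = 0.0864, named after its values were seen), and its libraries overlapped.

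Of 54 genes of DNA replication and S phase 13 rose and 0 fell, with a median log2 fold change of 0.39. The S phase cyclin CLB6 was at 0.08, 0.11 and 0.32 CPM (1, 1 and 4 reads) and then at 7.52, 3.49 and 4.99 CPM. Its log2 fold change was 4.82, and 5.66 without 120 min library C. CLB6 was over 1 CPM in no 120 min library. It thus passed the filter on low counts only through the group in which it is high. The clamp gene POL30 was at 12.5, 11.9 and 12.6 CPM and then at 107, 89.9 and 89.5 CPM. The thymidylate synthase gene CDC21 rose by 2.20 ± 0.13 on the log2 scale. RNR1, the large subunit of ribonucleotide reductase, rose from 75.4, 83.3 and 82.7 CPM to 273, 189 and 223 CPM. CLB5, the paired S phase cyclin, was at a log2 fold change of 0.86 ± 0.13. The helicase genes MCM2 and MCM7, named after their values were seen, were at -0.50 ± 0.07 and 0.42 ± 0.07. With rapamycin 0 of 53 genes of this list changed by edgeR or DESeq2, while 17 were higher and 16 lower at an unadjusted p under 0.05.

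MBF binds the MCB (ACGCGT) and SBF the SCB (CGCGAAA or CACGAAA). The MCB was held by 63.0% of the 54 genes and by 84.6% of the 13 that rose, against 5.62% of all genes tested, 6.98% of those that rose and 4.03% of those that fell. The SCB was held by 30.0% of 20 genes of Start and by 25.0% of the 8 that rose, against 12.9% of all genes tested, 11.5% of those that rose and 15% of those that fell, and the 500 bases before CLN2 and YOX1 had no match. The windows are at chrVII:706849-706928 (CLB6, minus strand), chrXV:467690-467769 (CDC21, minus strand), chrII:425919-425998 (POL30, minus strand), chrXIV:65292-65371 (TOS6, plus strand) and chrXIV:87550-87629 (PCL1, plus strand), with the MCB of the first 3 and the SCB of the others in capitals. TOS6 is shown although it is not on the Start list.
CLB6: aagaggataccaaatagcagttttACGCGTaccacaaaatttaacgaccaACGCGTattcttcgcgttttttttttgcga
CDC21: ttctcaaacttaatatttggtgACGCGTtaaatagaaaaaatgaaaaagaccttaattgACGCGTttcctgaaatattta
POL30: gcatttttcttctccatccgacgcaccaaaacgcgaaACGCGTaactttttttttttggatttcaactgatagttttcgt
TOS6: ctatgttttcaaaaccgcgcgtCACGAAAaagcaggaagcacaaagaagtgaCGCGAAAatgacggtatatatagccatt
PCL1: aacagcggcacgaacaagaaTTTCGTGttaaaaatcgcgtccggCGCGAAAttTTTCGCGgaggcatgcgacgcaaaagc

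Among the 9 histone genes HTA1, HTA2 and HHT2 rose and HHT1 fell, with HTA1 at 20.2, 20.8 and 20.1 CPM and then at 70.7, 38.8 and 48.5 CPM, and HHT1 at 163, 177 and 172 CPM and then at 82.9, 79.3 and 60.5 CPM. HHF1, HHF2, HTB1, HTB2 and HHO1 were between -0.33 and 0.67 on the log2 scale. From 240 to 360 min all 9 rose (5.27% of all genes tested rose). Of 37 genes of G2 and mitosis 4 rose and 0 fell (median -0.02), and the share that rose was below the 14.3% of all genes tested. With 1 library left out 3 to 6 rose. Among the 4 were the cyclin CLB2, at 4.57, 3.91 and 6.04 CPM and then at 12.6, 9.51 and 12.5 CPM, and the septum chitin synthase CHS2 with 1.21 ± 0.21. Of 19 tested genes of daughter-cell separation and early G1 1 rose, TOS6 (3 without 120 min library A), and 3 fell, DSE3, DSE1 (3.16, 3.38 and 2.98 CPM, then 1.02, 1.05 and 1.97 CPM) and RME1. EGT2 and CTS1, which loosen the septum, were at 0.05 and -0.29 and their libraries overlapped, and in the next interval 17 of 20 genes of this list rose. The Pho85 cyclin gene PCL9 had 4 or 5 reads in each 240 min library and was not tested. The study's own list of 8 cell cycle genes held 7 tested genes, of which CLN2, CLB6, PCL1, CLN1 and CHS2 rose. The paper describes the list as G1 genes that are expressed after 4 h, and says no more of how it was chosen. The list is thus tied to a time of germination and is not taken as independent evidence.

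Nitrogen and amino acid genes were called in both directions. In both lists the share that rose was below the 14.3% of all genes tested, and the share that fell was above 8.74%. Of 34 genes of nitrogen catabolite repression 3 rose and 8 fell (5 without 240 min library C), and the median log2 fold change was -0.39. The proline permease PUT4 was at 19.2, 24.5 and 18.4 CPM and then at 2.14, 2.38 and 2.08 CPM, and AGP1, a broad amino acid permease, fell from 400, 508 and 458 CPM to 96.1, 93.0 and 89.9 CPM. CPS1, a vacuolar carboxypeptidase, rose from 11.1, 5.39 and 10.2 CPM to 81.5, 70.9 and 94.2 CPM. The amino acid permease genes GAP1 and DIP5, which serve as TORC1 reporters and were named after their values were seen, were at -1.31 ± 0.13 and 1.51 ± 0.17. With rapamycin 22 of the 34 fell and 0 rose (0 at an unadjusted p under 0.05 and by DESeq2), while of all genes tested 4.37% fell and 5.74% rose. CPS1 at 120 min with rapamycin stood at 396, 378 and 396 CPM compared with 14.7, 7.27 and 13.9 CPM in DMSO on the 45-library scale. Among 48 genes of amino acid synthesis under Gcn4 3 rose and 12 fell. SER3 was at 307, 286 and 442 CPM and then at 26.4, 19.7 and 23.3 CPM, and the arginine genes ARG1 and ARG3 fell by 2.97 ± 0.17 and 3.12 ± 0.14 on the log2 scale. The Gcn4 site TGACTC was held by 75.0% of the 48 genes and 13.1% of all genes tested.

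Membrane, wall and metal genes gave further calls in both directions, while of all genes tested 14.3% rose and 8.74% fell. The falls of ergosterol and iron genes, the rises of wall genes and both counts of polarity genes were below these shares. Of 25 genes of ergosterol synthesis 8 rose and 1 fell, led by ERG24 and ERG28 with 2.73 ± 0.12 and 2.44 ± 0.11. Of 22 iron genes 5 rose and 1 fell, with the multicopper oxidase FET3 at 52.0, 26.0 and 44.1 CPM and then at 227, 230 and 320 CPM. Of 32 genes of vegetative wall proteins 4 rose and 8 fell, with CIS3 at 2501, 3339 and 2929 CPM and then at 826, 659 and 652 CPM and the glucan synthase gene GSC2, which is also active in spores, with -1.70 ± 0.12. Of 33 polarity and septin genes 1 rose, the bud site gene AXL2 (14.4, 15.96 and 16.7 CPM, then 70.2, 42.9 and 58.5 CPM), or 3 without 120 min library A or 240 min library B, and 2 fell, the bud site GTPase RSR1 and the Cdc42 effector GIC2. CDC42 itself was at -0.00 ± 0.08. Only COX1 and OLI1 of the 8 mitochondrially encoded genes passed the filter in this poly-A RNA, and neither was called. OLI1 was at a log2 fold change of 0.92, and at 0.15 (without 240 min library A) to 1.41 (without 120 min library A) with 1 library left out, and was called higher without 120 min library A or without 240 min library B or C.

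Of 26 spore wall and late sporulation genes 18 passed the filter, 11 fell and 1 rose. SPS100, a spore wall gene, was at 126, 75.9 and 107 CPM and then at 25.8, 29.6 and 29.5 CPM, and the kinase SPS1 and the membrane fusion gene SPO20 fell by 2.51 ± 0.23 and 2.43 ± 0.26 on the log2 scale. The one rise, CDA1, rested on 4 to 9 reads in each 120 min library, and the gene passed the filter only through the 240 min libraries. Of 17 tested meiosis genes 5 fell and 2 rose, and both rises were of genes with 8 or fewer reads in each 120 min library (DMC1 and IME4) that passed the filter only through 240 min. The translational repressor RIM4 fell from 17.7, 22.0 and 22.6 CPM to 5.76, 4.96 and 4.88 CPM. The study's list of 7 genes named TGC, whose choice was guided in part by the germination libraries and which is therefore not independent evidence, gave 1 rise, CIT1, and 2 falls, RME1 and CRC1.

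Of 7 genes often used as references in yeast 1 was called. All 7 differed at an adjusted p under 0.05, 4 upward and 3 downward, as did 4025 of all 5616 genes tested. ACT1, actin, rose from 1115, 1208 and 1191 CPM to 2464, 2409 and 2615 CPM. TUB1 and TUB2 were at 0.95 and 0.87 on the log2 scale, and TFC1 and TAF10 at -0.79 and -0.54. For ACT1 the log2 fold change was 1.09 ± 0.09, and 0.99 in the fit of all 21 DMSO libraries.

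**Figure D4:**
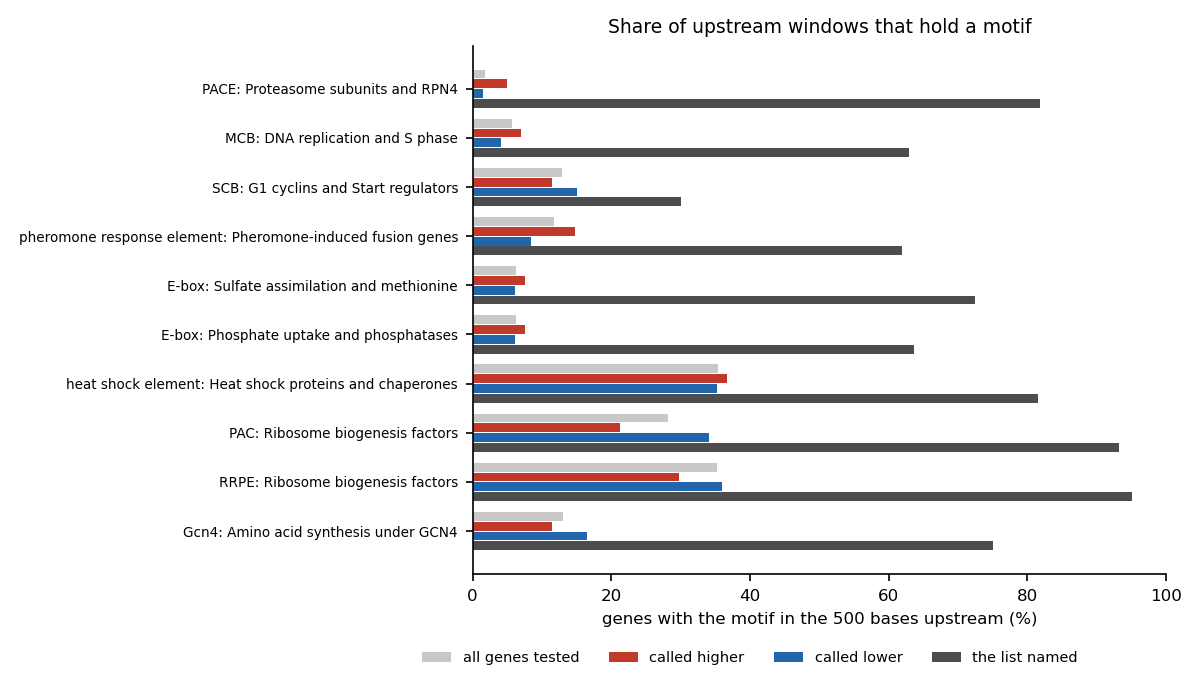
Share of genes, in percent, whose 500 bases before the start codon hold the motif named. Bars are all genes tested (light grey), genes that rose (red), genes that fell (blue) and the gene list named on the axis (dark grey). For every pair shown the list lies above all genes tested, for instance 81.8% and 1.71% for PACE, while all genes that rose, and all that fell, lie far below the list.

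The interval was set beside its neighbours and beside the same interval with rapamycin. From 60 to 120 min 1031 of 5641 genes changed (18.3%), 363 upward and 668 downward, and from 240 to 360 min 376 of 5603 (6.71%), 295 upward and 81 downward. With rapamycin 574 of 5679 genes (10.1%) changed between 120 and 240 min, 326 upward and 248 downward. Scaling by library size alone moved the shares of higher calls, with 34.6% of the calls with rapamycin upward in place of 56.8% and 22.2% from 60 to 120 min in place of 35.2%, while for the DMSO interval itself the share was 63.1%. The number of genes whose change differed between DMSO and rapamycin was 1876 of 5727 (32.8%), 946 with a higher change in DMSO and 930 with a lower one. By library size alone 65.4% of 1939 calls were higher in DMSO, against 50.4%, and the median of all genes moved from -0.05 to 0.21.

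Several of the genes with the largest differences already differed between treatments at 120 min. On the 45-library scale MET6 went from 554, 617 and 560 CPM to 271, 271 and 341 CPM with rapamycin and from 76.1, 76.7 and 120 CPM to 1651, 1542 and 1570 CPM with DMSO. CHA1, which degrades serine and threonine, went from 2603, 2707 and 1951 CPM to 199, 308 and 210 CPM with rapamycin and from 54.0, 58.6 and 46.4 CPM to 152, 186 and 178 CPM with DMSO. In each treatment and gene the 120 and 240 min libraries did not overlap. SER3 went from 78.2, 74.7 and 82.5 CPM to 424, 362 and 458 CPM with rapamycin, the opposite of its fall with DMSO. ANS1 stood apart, with 5512, 5706 and 5105 CPM at 120 min and 4518, 5287 and 3984 CPM at 240 min with rapamycin, close to its level of 4782, 6439 and 5507 CPM in DMSO at 120 min.

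**Figure D5:**
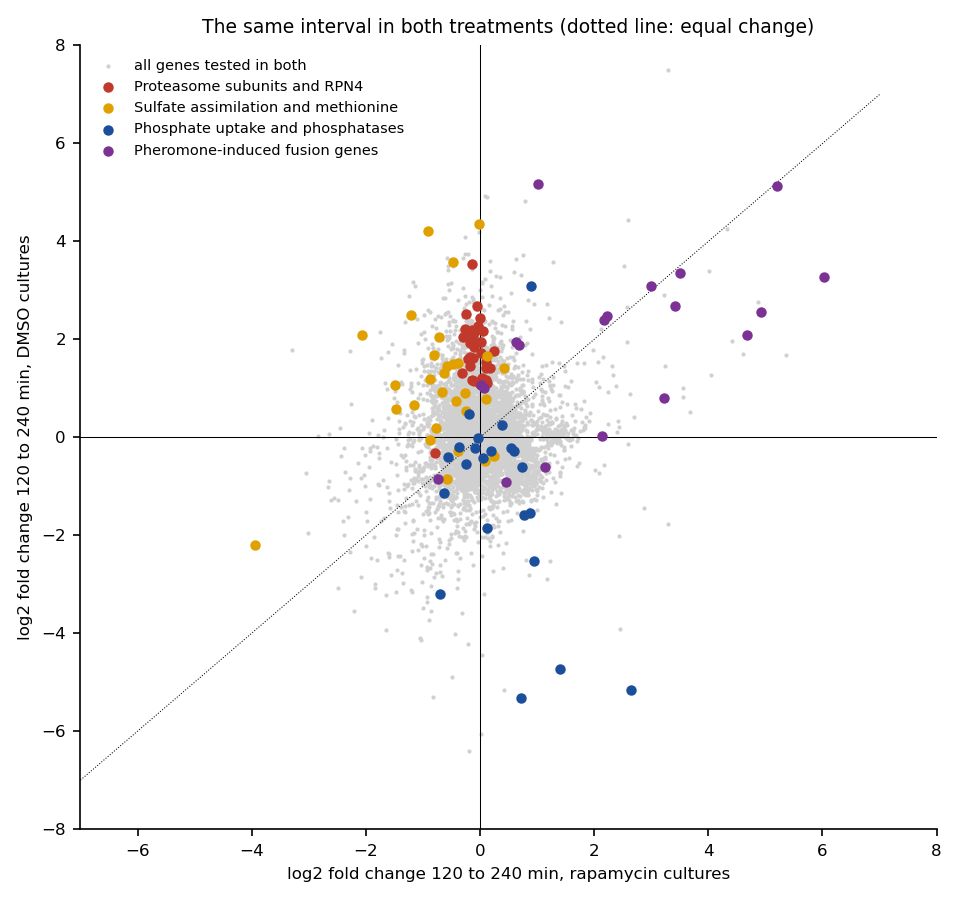
Log2 fold change from 120 to 240 min in the rapamycin cultures (horizontal axis) and in the DMSO cultures (vertical axis) for 5583 genes tested in both, each a point, with 4 lists in colour and a dotted line of equal change. Proteasome genes (red), RPN4 excepted, lie above 0 on the vertical axis and near 0 on the horizontal one, phosphate genes (blue) reach -5.32 in DMSO, and fusion genes (purple) mostly lie above 0 on both.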

How the data were processed

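The data are RNA-Seq of 45 libraries, 15 conditions with 3 replicates each, of which the 6 libraries of DMSO at 120 and 240 min were compared. Groups and replicate letters were taken from the sample labels. The members and gene lists were chosen with earlier results of these data known. The authors deposited raw counts per gene. According to the methods of the study, reads were trimmed with Trimmomatic 0.33, aligned with hisat2 2.0.4 to the SK1 genome and counted on the strand of the gene with HTSeq 0.6.1p1 in union mode (reads that touch several genes are not counted) on Ensembl annotation R64-1-1.86. The series record names other tools, so the methods were followed. The table holds 6723 genes, of which 6039 matched RefSeq R64, the source of names and coordinates. Gene models from the reference strain can lose reads of SK1 genes that differ.

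The filter kept genes above 1 CPM in 3 or more libraries. These were scaled by TMM and tested with glmQLFit and glmQLFTest (R 4.3.3, edgeR 4.0.16), and called at an adjusted p under 0.05 (Benjamini-Hochberg over all genes tested) and at least 2-fold, after the thresholds of the study. The interval with rapamycin, the neighbouring intervals and the interaction over 12 libraries used the same rules. The SE is the log2 fold change divided by the square root of F. Total counts ranged from 7736397 to 14522407 over 45 libraries, and low counts carry counting error. The fits were tested on simulated data. Because the cultures were sampled repeatedly, letters pair the samples: deviations from the group means correlated at 0.18 (A), 0.27 (B) and 0.23 (C) between the same letters of 120 and 240 min. With 3 against 3, the smallest two-sided p of an exact permutation test is 0.1, so none is given.

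Named genes are the 12 largest rises and falls with at least 10 CPM and no overlap, the 3 largest changes of each list, every member of lists of 9 or fewer, the 5 largest interactions in each direction and the markers. Every other gene named, marked or not, was picked with its values known. The PACE and heat shock motifs and the alternatives for the rapamycin and neighbouring intervals were likewise chosen after seeing the data. Motifs are exact matches on both strands in 500 bases upstream, as a description. Alternatives (library size scaling, DESeq2 1.42.0 test and size factors, other filters, exact test, 21-library fit, replicate block, each library left out) are given at the end.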

Additional observations from a re-analysis of the deposited data

Results flagged for a closer look

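The change between 120 and 240 min differed between the DMSO and the rapamycin cultures for 1876 of 5727 genes by the interaction test (edgeR's quasi-likelihood test, adjusted p under 0.05 and at least 2-fold). The 5 genes with the largest differences toward DMSO, as the DMSO change minus the rapamycin change on the log2 scale, were MET6 (5.08), CHA1 (5.03), MHT1 (4.32), CPS1 (4.31) and SSA2 (4.31). In the other direction they were PHO84 (-7.85), SER3 (-6.41), ANS1 (-6.25), PHO89 (-6.16) and SPL2 (-6.08). The adjusted p of these 10 genes lay between 2.36e-11 (ANS1) and 2.58e-09 (PHO84). Groups of 3 libraries were too small for a test of single outlying libraries.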

How the results depend on the processing

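The count of 1294 genes was 1284 to 1385 under library size scaling, DESeq2's test or size factors, the other filters, edgeR's exact test and the 21-library fit, and 1239 (without DMSO 120 min replicate B) to 1319 (without DMSO 120 min replicate A) with 1 library left out (759 to 854 higher, 465 to 523 lower). With the replicate letter as a block it was 1294, with 1284 genes in common, and the interaction gave 1884. With no minimum fold 4025 genes passed (2050 higher, 1975 lower), and against a 2-fold change by glmTreat 814 did (272 lower). With no minimum fold the interval from 60 to 120 min gave 3715 (1752 higher, 1963 lower), that from 240 to 360 min 2381 (1264 higher, 1117 lower), rapamycin 3759 (1850 higher, 1909 lower) and the interaction 4101 (1943 higher, 2158 lower). Library size scaling, chosen for these intervals after seeing the data, gave 52 lower genes from 240 to 360 min and 422 with rapamycin. The interaction count ranged from 1826 to 1940 with 1 library left out (913 to 1000 higher, 862 to 948 lower). Of named genes none changed direction where called, and of list medians 7 took both signs, among them daughter-cell separation (-0.1172 to 0.0298 with 1 library left out, lowest without DMSO 240 min replicate A and highest without DMSO 240 min replicate C) and the mitochondrially encoded genes (-0.067 with no filter, and -0.0729 without DMSO 240 min replicate A to 0.7126 without DMSO 120 min replicate A). Those of the list of G2 and mitosis (-0.0638 without DMSO 240 min replicate A to 0.0556 without DMSO 240 min replicate B), of both ribosomal protein lists, of the nuclear respiratory list and of the polarity list lie too near 0 for their sign to hold. The cause of these shifts was not tested.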

Other observations

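Some genes outside the lists fixed for the report were examined after their values were seen, and are given as values. All 7 subunits of the Arp2/3 complex, which nucleates branched actin, rose, namely ARP2 (30.6, 23.7 and 28.3 CPM at 120 min, then 88.8, 96.2 and 114 CPM), ARP3, ARC15, ARC18, ARC19, ARC35 and ARC40, with log2 fold changes from 1.01 (ARC35) to 1.85 (ARP2). ARC35 was not called under 6 of the alternatives (0.90 in the fit of 21 DMSO libraries, 0.96 without DMSO 120 min library C and 0.99 without DMSO 240 min library B among them) and ARC18 under 2. The formin BNI1 was at 0.36 ± 0.08. The segregase CDC48, which feeds the proteasome, was at 92.2, 87.4 and 103 CPM and then at 663, 669 and 682 CPM, and its cofactors DOA1 and OTU1 and the deubiquitinase UBP6 rose by 2.57 ± 0.15, 3.08 ± 0.16 and 1.84 ± 0.09 on the log2 scale. Rises were also called for 3 other genes, the peroxiredoxin AHP1 by 2.41 ± 0.12, thioredoxin TRX1 by 1.68 ± 0.09 and glucose-6-phosphate dehydrogenase ZWF1 by 2.45 ± 0.13. Falls were called for the uridine permease FUI1 at 652, 829 and 765 CPM and then at 136, 167 and 188 CPM, the uracil permease FUR4 with -2.22 ± 0.12 and the pyrimidine synthesis enzyme URA2 with 4738, 5941 and 5800 CPM and then 814, 695 and 802 CPM. The copper transporter CTR1 fell by 1.68 ± 0.14 and the zinc transporter ZRT1 by 2.81 ± 0.15.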
